A study of Mus musculus with 24 samples.

Results

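The comparison is ageing in the hippocampus of XX mice of the control genotype: 3 libraries of 24-month-old female controls against 3 of 6-month-old female controls, 6 of the 24 libraries of the series. It was chosen with earlier results of these data known, and so was the doubt about 1 old library, while the groups follow the labels of age, sex and genotype. The study crossed mice carrying a floxed aromatase gene with a Nestin-Cre line to remove aromatase from the brain, and the controls are age-matched littermates with the floxed alleles and no Cre, on a C57BL/6J background. All 8 groups formed by age, sex and genotype carry the floxed allele. The old mice are 24 months old by the sample labels and 19 months old by the design text of the series, and the labels are used here. The labels give no stage of the estrous cycle, and each library is taken as 1 mouse.

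The young libraries hold 11123983, 9547440 and 13426664 counts and the old ones 11852576, 8290204 and 7615391, so a gene with 0 counts is under 0.392 CPM in old replicate 3, the shallowest of the 24 libraries, and under 0.224 CPM in young replicate 3, taking 3 counts as the floor. The library numbers that the sample descriptions print after an S split by age, with all young libraries numbered before all old ones, and the numbers in the column names split by age the other way. Any difference between runs or days that follows these numbers and the difference between ages cannot be told apart. The columns of old replicates 1 and 3 carry a further number that the other libraries of the comparison lack, and its meaning is not given.

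Old replicate 3 stands apart from the other 5 libraries. Across the 15693 genes tested, its correlation of log2 CPM with the others runs from 0.973 to 0.975, against 0.988 to 0.993 among those 5, and genes are not independent replicates. Its root mean square distance from the mean of its group is 0.34 on the log2 scale, against 0.233 for old replicate 1, 0.229 for old replicate 2 and 0.195, 0.181 and 0.157 for the young replicates. It is the highest of the 6 libraries in 5621 genes and the lowest in 4805, while the other 5 libraries are each the highest in 1663 to 2425 genes and the lowest in 1919 to 2517. The median absolute difference per gene is 0.132 on the log2 scale between old replicates 1 and 2, 0.330 between old replicates 1 and 3, and 0.325 between old replicates 2 and 3. The deviation runs with gene length, when taken from the mean of all 24 libraries, so that age, sex and genotype enter it too. Across 15648 genes with an annotated length, Spearman's rho between exonic length and that deviation is -0.41 in old replicate 3, so longer genes read lower there. The same rho is 0.13, 0.04 and 0.09 in the young replicates, 0.08 in old replicate 1 and -0.00416 in old replicate 2. Among the libraries outside the comparison it is lowest in old female bArKO replicate 1, at -0.29. Whether RNA quality or the tissue taken lies behind the deviation was not tested. The fold changes of the genes past the threshold and the medians of the gene lists described are therefore given with and without old replicate 3.

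**Figure D1:**
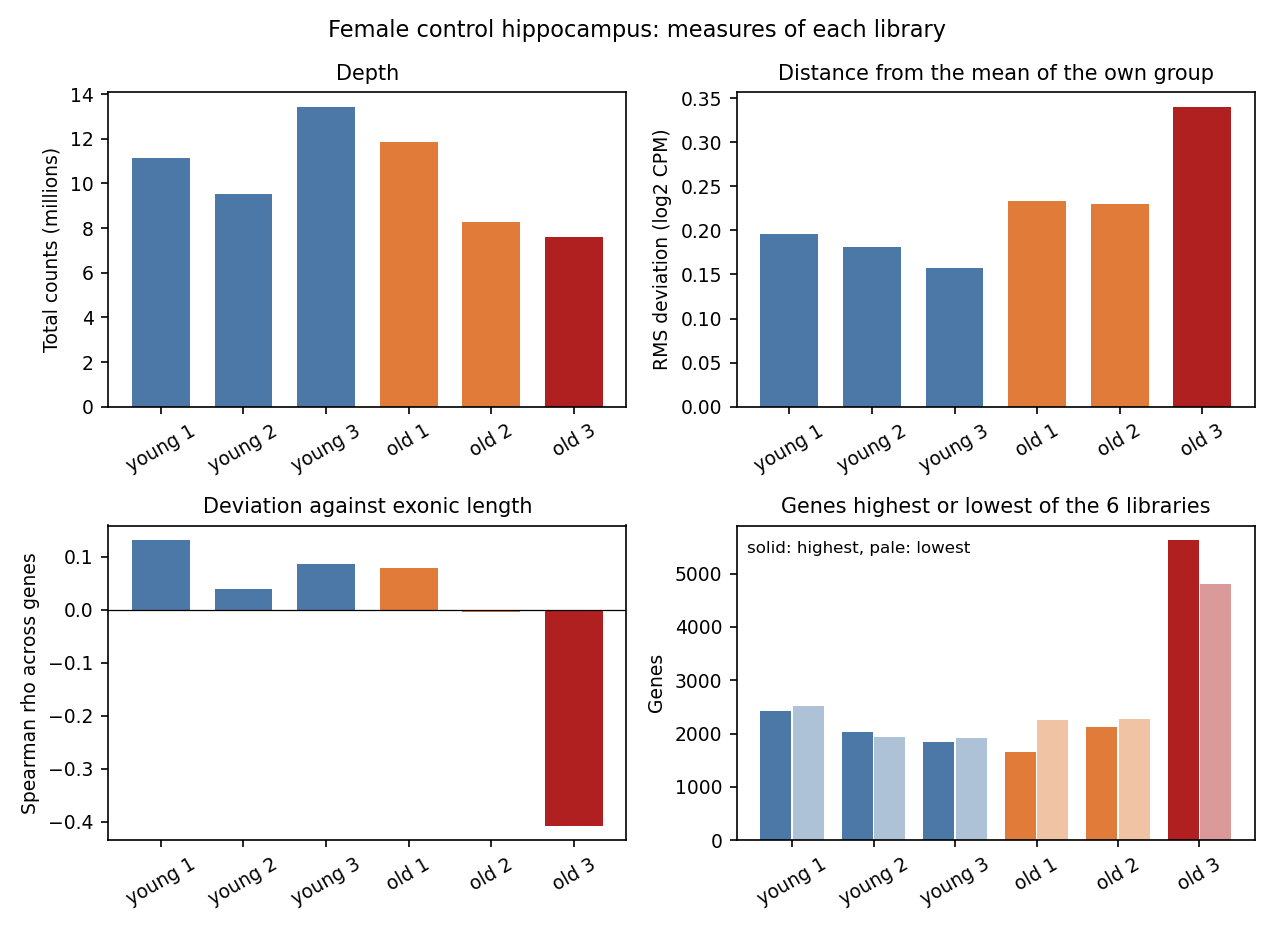
Total counts, distance from the mean of the own group, the relation of each library's deviation from the mean of all 24 libraries to exonic length, and the number of genes in which it is the highest or the lowest, for the 6 female control libraries.

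*Xist* is read in all 6 libraries, at 501, 713 and 777 CPM in the young and 637, 825 and 184 CPM in the old ones, and is lowest in old replicate 3. *Ddx3y*, on the Y chromosome, has 0 counts in each of the 6. *Malat1*, looked at after its values were seen because it is a long nuclear transcript, has 126, 193 and 218 CPM in the young libraries and 250.5, 221 and 42.7 CPM in the old. The list of nuclear long noncoding RNAs sums to 1872, 2703 and 2959 CPM in the young libraries and 2554, 3191 and 1281 CPM in the old, with *Xist* as its most counted gene. Without old replicate 3 the median log2 fold change of the 17 tested genes of that list is 0.14, and with it -0.06. With all libraries kept and the trend with gene length removed it is 0.04. It is -0.30 without old replicate 2, -0.27 without young replicate 1, -0.01 without young replicate 2 and 0.00 without young replicate 3.

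In the fit of all 24 libraries, 15 of 15693 genes passed both thresholds, an absolute log2 fold change above 0.5 and an adjusted p under 0.05 (edgeR). Of these, 11 are higher in the old mice (0.0701%) and 4 are lower (0.0255%). An unadjusted p under 0.05 was reached by 2134 genes, 1114 higher in old (7.1%) and 1020 lower (6.5%). Every old library lies above every young one in 1301 genes (8.29%) and below every young one in 1195 (7.61%). DESeq2 on the same libraries called 39 genes, of which 12 are among the 15. Fitted on the 6 female control libraries alone, edgeR called 0 genes, with 969 at an unadjusted p under 0.05, and DESeq2 called 20, of which 11 are among the 15.

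The count depends on single libraries. Without old replicate 3, edgeR called 3 of 15968 genes, 2 higher in old (0.0125%) and 1 lower (0.00626%), and all 3 are among the 15: *ENSMUSG00000095041*, *C4b* and *Dpysl3*. At an unadjusted p under 0.05 there were then 582 genes higher in old (3.64%) and 546 lower (3.42%). Both remaining old libraries lie above every young one in 2127 of the 15693 genes (13.6%) and below in 2331 (14.9%), counts that fewer libraries make larger by construction. DESeq2 without old replicate 3 called 16 genes, 9 of them among the 15, namely *ENSMUSG00000095041*, *Dpysl3*, *C4b*, *Ctsz*, *Ighm*, *Gfap*, *C1qc*, *Tyrobp* and *Ctss*; this fit was added after the data were seen. In what follows, passing refers to edgeR unless DESeq2 is named. The young libraries move the count as well: 8 genes passed without young replicate 1 (6 of the 15), 3 without young replicate 2 (2 of the 15) and 1 without young replicate 3, which was *ENSMUSG00000095041*. Without old replicate 1 the count was 13 (10 of the 15), and without old replicate 2 it was 16 (12 of the 15). At an unadjusted p under 0.05 these fits held 3391 and 2875 genes in the same order, against 2134 with all libraries. Removing a trend with gene length from each library, also a setting chosen after the data were seen, gave 10 genes, 9 of them among the 15; *ENSMUSG00000095041* has no annotated length and was not in that fit. None of the 15 reversed its sign under any of the 21 alternative settings that gave it a value.

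**Figure D2:**
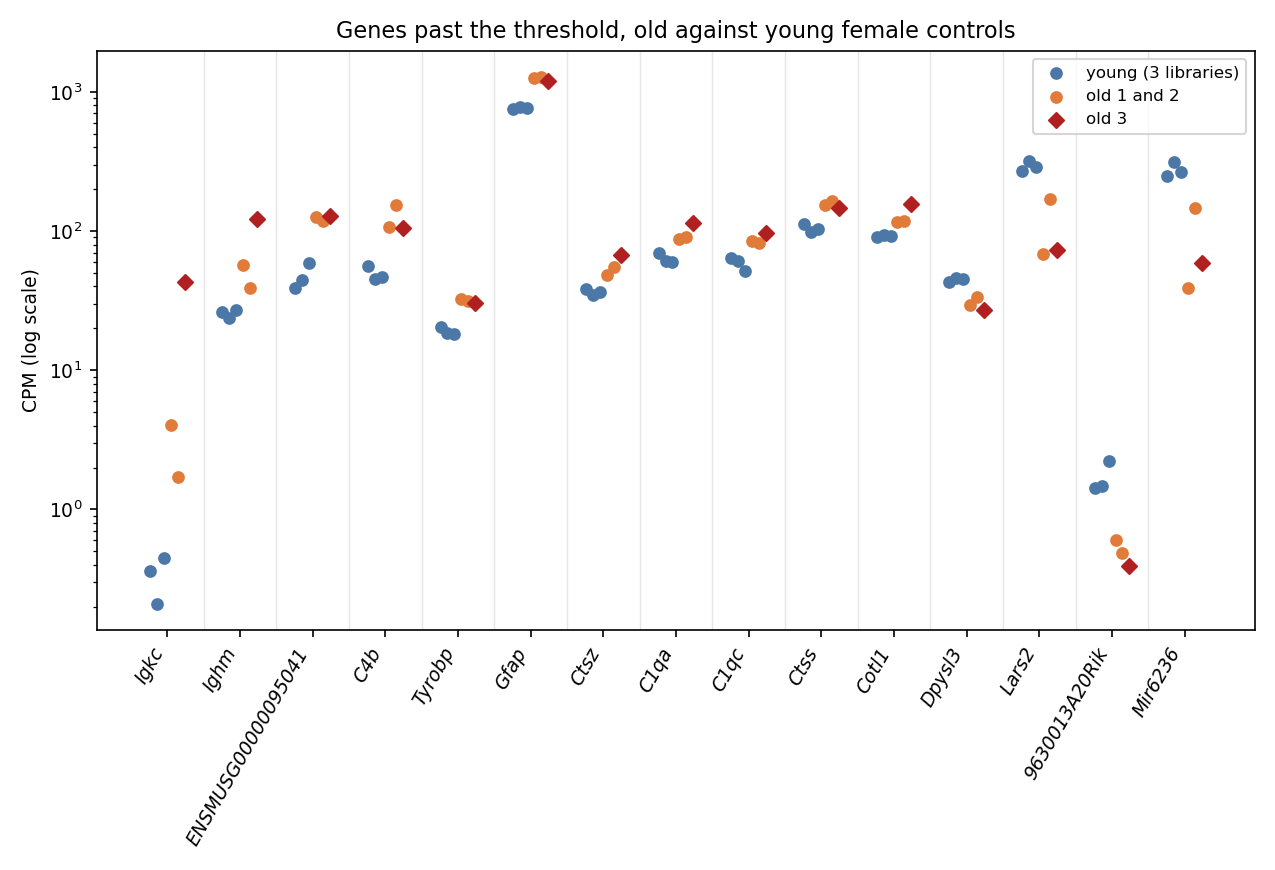
CPM of the 15 genes past the threshold in each of the 6 female control libraries. Old replicate 3 is drawn as a diamond.

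Microglia are the resident macrophages of the brain. In the healthy adult brain they are the main source of the C1q chains, which start the classical complement pathway, while C4 is made by astrocytes and other brain cells. *Tyrobp* encodes an adaptor of microglial receptors, and *Ctss* and *Ctsz* encode lysosomal proteases. Several of these genes passed the test here.

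*C4b* was read at 56.1, 45.2 and 46.6 CPM in the young libraries and 106, 154 and 106 CPM in the old, a log2 fold change of 1.31 (SE 0.21, edgeR adjusted p 0.0153), and every old library lies above every young one. It also passed without old replicate 3, at 1.40. It fell short of the threshold without young replicate 2 (1.25) and without young replicate 3 (1.26). *C1qa* has 70.0, 61.1 and 59.9 CPM in the young libraries and 87.7, 90.4 and 114 CPM in the old (log2 fold change 0.61, SE 0.11, adjusted p 0.0169). For *C1qc* the values are 64.5, 61 and 51.3 CPM in the young libraries and 84.6, 81.9 and 96.7 CPM in the old (log2 fold change 0.57, SE 0.10, adjusted p 0.0169). Both genes have no overlap between ages, and in both old replicate 3 is the highest library. Neither passed without old replicate 3, with log2 fold changes of 0.48 for *C1qa* and 0.50 for *C1qc*. Neither passed without young replicate 2 (0.59 and 0.60) or without young replicate 3 (0.55 and 0.47). *C1qb*, which encodes the third chain and lies in the same cluster on chromosome 4, has 66, 59.9 and 64.2 CPM in the young libraries and 87.2, 89.5 and 119.7 CPM in the old. Its log2 fold change of 0.64 missed the threshold (adjusted p 0.0806), its old and young values do not overlap, and without old replicate 3 it is 0.48.

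Of 24 complement genes listed, 22 were tested, and their median log2 fold change is 0.23 with all libraries and 0.17 without old replicate 3, against 0.01 and -0.01 over all genes tested. In 7 of the 22 every old library lies above every young one, and in 0 below, where the shares over all genes are 8.29% and 7.61%. With old replicate 3 left out the counts are 7 and 1, where the shares over all genes are 13.6% and 14.9%. The list sums to 1594, 1732 and 1664 CPM in the young libraries and 1916, 1938 and 2396 CPM in the old. Most of that is *Clu*, a gene of astrocytes as well, and without it the sum is 478, 442 and 444 CPM in the young libraries and 591, 629 and 660.2 CPM in the old. *Cfi* is listed at 0 in all 6 libraries. The 3 genes of the list that passed are *C4b*, *C1qa* and *C1qc*, and without old replicate 3 the count is 1 (0.0701% and 0.0125% of all genes, higher in old).

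*Tyrobp* has 20.5, 18.5 and 18.4 CPM in the young libraries and 32.3, 31.2 and 30.3 CPM in the old, a log2 fold change of 0.71 (SE 0.13, edgeR adjusted p 0.0221). *Ctss* has 112, 98.3 and 104 CPM in the young libraries and 153, 165 and 147 CPM in the old, with 0.57 (SE 0.11, adjusted p 0.0262). *Ctsz* has 38.1, 34.7 and 36.3 CPM in the young libraries and 48.1, 55.1 and 67.2 CPM in the old, with 0.64 (SE 0.11, adjusted p 0.0169). In these 3 genes no old library overlaps a young one. Leaving out old replicate 3 brings the log2 fold changes to 0.73, 0.60 and 0.50 in the same order, and none of the 3 passed. *Tyrobp* and *Ctss* did not pass with any 1 of the 6 libraries left out, while their log2 fold changes ran from 0.67 to 0.76 and from 0.52 to 0.62. *Ctsz* passed without old replicate 1, old replicate 2 or young replicate 1, and did not without young replicate 2 (0.61) or young replicate 3 (0.62).

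The wider microglial lists lean the same way. Of 18 homeostatic microglial genes, 16 were tested, with a median log2 fold change of 0.28 (0.33 without old replicate 3). In 8 of the 16 all old libraries lie above all young ones, and in 0 below (8.29% and 7.61% over all genes), and with old replicate 3 left out in 9 and 0 (13.6% and 14.9%). The list sums to 639.7, 649 and 629 CPM in the young libraries and 838, 740.2 and 738 CPM in the old, with *Csf1r* as its most counted gene. None of its genes passed the edgeR threshold, 8 reached an unadjusted p under 0.05 with higher values in old mice (7.1% over all genes), and the members with the smallest p are *Gpr34* (log2 fold change 0.64, 0.76 without old replicate 3) and *Tmem119* (0.48 and 0.40). For the 34 tested genes of activated microglia the median is 0.53, and 0.50 without old replicate 3. Of these 34, 3 passed, all upward (0.0701% of all genes), 22 reached an unadjusted p under 0.05 upward and 1 downward (7.1% and 6.5% over all genes), and 21 have no overlap between ages, all higher in old (8.29% over all genes). With old replicate 3 left out none passed in edgeR, 19 reached an unadjusted p under 0.05 upward against 3.64% of all genes, and 23 lie above every young library against 13.6%. Over the fits that leave out 1 of the 6 libraries, the median of this list runs from 0.43 to 0.61. *Cd68* is at 8.78, 6.95 and 6.19 CPM in the young libraries and 11.7, 11.4 and 12.9 CPM in the old (log2 fold change 0.72, adjusted p 0.084), and without old replicate 3 its log2 fold change is 0.66. In bulk tissue, more cells of a type and more RNA per cell cannot be told apart, and the same holds for fewer cells and less RNA.

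Lysosomal genes overlap with this list: *Ctss*, *Ctsz*, *Cd68* and *Laptm5* are in both. Among 51 tested lysosomal genes the median log2 fold change is 0.12, with 2 genes past the threshold upward (0.0701% over all genes) and 14 above and 0 below in all old libraries (8.29% and 7.61% over all genes). At an unadjusted p under 0.05 there are 16 upward and 0 downward (7.1% and 6.5%). Without old replicate 3 the median is 0.05, with 17 above and 5 below (13.6% and 14.9% over all genes) and 0 past the edgeR threshold (10 upward and 1 downward at an unadjusted p under 0.05, where all genes have 3.64% and 3.42%). Leaving out old replicate 1 brings the median to 0.19. The sum over the list, with *Psap* as its most counted gene, is 6113, 5966 and 6036 CPM in the young libraries and 6118, 6262 and 6816 CPM in the old.

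Astrocytes raise the intermediate filament protein GFAP when they react to injury or age. *Gfap* was read at 754, 773 and 763 CPM in the young libraries and 1251, 1278 and 1204 CPM in the old, a log2 fold change of 0.71 (SE 0.12, edgeR adjusted p 0.0169) with no overlap between ages. It passed without old replicate 1 or old replicate 2. With old replicate 3 left out it is 0.73, with young replicate 1 left out 0.70, with young replicate 2 left out 0.71 and with young replicate 3 left out 0.69, and in each of these 4 fits the adjusted p missed the threshold while the size hardly moved. Of 26 listed genes of reactive astrocytes 23 were tested, with a median of 0.43, which is 0.28 without old replicate 3 and 0.27 without young replicate 3. In 12 of the 23 the old libraries all lie above the young ones and in 1 below (8.29% and 7.61% over all genes), and with old replicate 3 left out in 12 and 2 (13.6% and 14.9%). *Gfap* is the most counted gene of the list and the only one past the threshold (0.0701% of all genes upward). The list less *Gfap* sums to 351, 359 and 348 CPM in the young libraries and 374, 442 and 448 CPM in the old. *Osmr* (0.58), *Vim* (0.44) and *Aspg* (0.76) have the smallest unadjusted p values after *Gfap* and missed the threshold. Their log2 fold changes without old replicate 3 are 0.66, 0.33 and 0.74.

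Genes that mark astrocytes in general were read from a separate list. The 14 tested have a median of 0.10 (0.14 without old replicate 3 and 0.02 without old replicate 1), none passed in edgeR, and 3 reached an unadjusted p under 0.05 upward and 1 downward (7.1% and 6.5% over all genes). In 3 of the 14 every old library lies above every young one and in 0 below (8.29% and 7.61%), and with old replicate 3 left out in 8 and 0 (13.6% and 14.9%). They sum to 11965, 13329 and 12231 CPM in the young libraries and 14203, 13322 and 9476 CPM in the old, and old replicate 3 has the lowest sum. The most counted gene, *Slc1a2*, has 5972, 6829.5 and 6098 CPM in the young libraries and 7149.7, 6510.1 and 3406 CPM in the old, and without it the sum is 5993, 6499 and 6133 CPM in the young libraries and 7053, 6812 and 6071 CPM in the old, lowest in young replicate 1; *Aqp4* has 364, 282 and 296 CPM in the young libraries and 301, 280.5 and 179 CPM in the old. *Aldoc*, with 997, 1275 and 1113 CPM in the young libraries and 1324, 1358 and 1548 CPM in the old, and *S100b*, with 169, 193 and 189.7 CPM in the young libraries and 219, 265 and 228 CPM in the old, are higher in every old library, at log2 fold changes of 0.32 and 0.36 that missed the threshold. Leaving out old replicate 3 they are 0.25 and 0.39.

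*Ighm* and *Igkc*, which encode antibody chains made by B cells and plasma cells, passed with all 6 libraries and rest most on old replicate 3. *Ighm* was read at 26.4, 23.6 and 27.3 CPM in the young libraries and 57, 39.1 and 123 CPM in the old, a log2 fold change of 1.49 (SE 0.25, edgeR adjusted p 0.0169). *Igkc* has 0.358, 0.211 and 0.448 CPM in the young libraries and 4.08, 1.71 and 43.4 CPM in the old, which are 4, 2 and 6 counts and 47, 14 and 332 counts, and a log2 fold change of 5.48 (SE 1.06, adjusted p 0.0374). No old library overlaps a young one in either gene. Their log2 fold changes with old replicate 3 left out are 0.90 and 3.05, and neither passed. Leaving out young replicate 1 (1.51 and 5.49), young replicate 2 (1.43 and 5.27) or young replicate 3 (1.51 and 5.70) also left both short of the threshold.

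Of 19 listed genes of B cells and plasma cells, 5 had enough counts to be tested, and 12 have 0 counts in some of the 6 libraries. The median of the 5 is 0.46 with and 0.21 without old replicate 3, and over the fits that leave out 1 library it runs from 0.17 without young replicate 1 to 1.25 without young replicate 3. In edgeR on the 6 female control libraries alone it is 3.46, the highest of the 21 alternative settings. The sum over the 19 listed genes is 28.7, 27.1 and 31.8 CPM in the young libraries and 65.2, 43.3 and 180.3 CPM in the old. Without *Ighm*, the most counted gene, it is 2.24, 3.48 and 4.48 CPM in the young libraries and 8.24, 4.28 and 57.8 CPM in the old. *Ighd* goes the other way, with 0.537, 0.527 and 1.19 CPM in the young libraries and 0.347, 0.245 and 0.392 CPM in the old (log2 fold change -1.21, missing the threshold, and -1.33 without old replicate 3). T cell and natural killer cell genes, 4 of 18 tested, sum to 4.12, 4.53 and 4.33 CPM in the young libraries and 5.29, 5.88 and 10.5 CPM in the old, with *Lck* as the most counted gene and medians of 0.08 with and -0.16 without old replicate 3, -0.04 without young replicate 1 and 0.24 without young replicate 2. The 7 globin and erythroid genes found sum to 156, 90.8 and 109 CPM in the young libraries and 132, 139 and 216 CPM in the old, with *Hbb-bs* as the most counted. The 5 of them that were tested have medians of 0.44 with all libraries, 0.10 without old replicate 3 and 0.66 without young replicate 1. Old replicate 3 is also the highest by this sum. Whether blood left in the tissue, choroid plexus or lymphocytes in the brain gave these counts was not tested.

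A pair of genes on chromosome 9 fell. *Lars2*, a mitochondrial leucyl-tRNA synthetase, has 269, 318 and 291 CPM in the young libraries and 68.5, 171 and 73.1 CPM in the old (log2 fold change -1.50, SE 0.29, edgeR adjusted p 0.0412). *Mir6236* has 250.3, 313 and 265 CPM in the young libraries and 38.9, 146 and 58.9 CPM in the old (log2 fold change -1.77, SE 0.35, adjusted p 0.0412). Both are lower in every old library than in any young one, and within the old group old replicate 2 is highest in both. Within each of the 8 groups of the series, both genes rank the libraries in the same order, so they are not separate readings. Whether both take up the same reads was not tested. They also differ widely within 1 group: in young male bArKO mice *Lars2* ran from 139 to 314 CPM and *Mir6236* from 127 to 312 CPM. The annotated genes start at 123195952 and 110110355 on chromosome 9 of GRCm39 and do not overlap. Each passed in 1 of the 6 fits that leave out a library, the one without old replicate 2 (-2.05 for *Lars2* and -2.51 for *Mir6236*). Without old replicate 3 the values are -1.30 and -1.60, without old replicate 1 -1.26 and -1.43, and with a young library left out they run from -1.55 to -1.43 and from -1.84 to -1.67. Counts on *Mir6236* in libraries of polyadenylated RNA are not counts of the mature microRNA. Its sequence in RefSeq, at chr9:110281353-110281371 on the plus strand of GRCm38.p6, is printed with the seed, bases 2 to 8, in capitals.
mmu-miR-6236: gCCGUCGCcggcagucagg

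The gene with the smallest p is *ENSMUSG00000095041*, known by its identifier alone because neither annotation used gives it a name or a place. It has 38.8, 44.2 and 58.8 CPM in the young libraries and 127, 117 and 128 CPM in the old, a log2 fold change of 1.39 (SE 0.16, edgeR adjusted p 0.000159) with no overlap, and 1.37 without old replicate 3. It passed with each of the 6 libraries left out, at 1.26 to 1.57. *Cotl1*, an actin-binding protein, has 90.7, 93.1 and 91.9 CPM in the young libraries and 116, 118 and 157 CPM in the old, just past the threshold of 0.5 at 0.50 (SE 0.09, adjusted p 0.0262). Without old replicate 3 its log2 fold change is 0.35, below the threshold, and it also missed without young replicate 1 (0.49), young replicate 2 (0.51) or young replicate 3 (0.49). The long noncoding RNA *9630013A20Rik* has 1.43, 1.47 and 2.24 CPM in the young libraries and 0.607, 0.49 and 0.392 CPM in the old, which are 16, 14 and 30 and 7, 4 and 3 counts (log2 fold change -1.75, SE 0.34, adjusted p 0.0366). It passed in none of the fits that leave out 1 library, where its log2 fold change ran from -1.95 to -1.51, and was -1.62 without old replicate 3.

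*Dpysl3*, a protein of growing axons and young neurons, fell: 42.7, 46.3 and 45.1 CPM in the young libraries and 29.4, 33.7 and 26.9 CPM in the old, a log2 fold change of -0.57 (SE 0.08, edgeR adjusted p 0.00479) with no overlap between ages. It passed without old replicate 3 (-0.51) and in 4 further fits that leave out 1 library, and missed the threshold without young replicate 3 (-0.58). It is the 1 gene past the threshold among 22 tested genes of neurogenesis (0.0255% of all genes downward), whose median is -0.16 (-0.09 without old replicate 3 and -0.08 without young replicate 1). Of the 22, 3 have no overlap with lower values in old and 0 with higher (7.61% and 8.29% over all genes), and with old replicate 3 left out 4 and 3 (14.9% and 13.6%). *Dcx*, a marker of newborn neurons, has 13.9, 9.8 and 12.2 CPM in the young libraries and 6.33, 8.94 and 3.53 CPM in the old, a log2 fold change of -0.93 that missed the threshold (adjusted p 0.163), and -0.67 without old replicate 3. *Mki67*, a marker of dividing cells, is read at 3.14, 2 and 2.54 CPM in the young libraries and 2.43, 1.1 and 0.784 CPM in the old (log2 fold change -0.76, and -0.49 without old replicate 3), and missed the threshold.

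Oligodendrocyte precursors and the myelinating cells they give rise to were read from separate lists. Of 14 tested precursor genes none passed in edgeR, 3 are lower in old at an unadjusted p under 0.05 and 0 higher (6.5% and 7.1% over all genes), and the median is -0.09 (-0.02 without old replicate 3 and -0.19 without old replicate 2). At that p 3 are lower and 1 higher with old replicate 3 left out (3.42% and 3.64%). *Pdgfra*, with the smallest p of the list, has 64.1, 72.5 and 70.6 CPM in the young libraries and 57.9, 60.8 and 36.5 CPM in the old (log2 fold change -0.41, and -0.22 without old replicate 3). *Gpr17* has 48, 49.3 and 45.4 CPM in the young libraries and 32.4, 29.6 and 39.7 CPM in the old (log2 fold change -0.49, -0.61 without old replicate 3). *Neu4* has 12.5, 14.7 and 12.9 CPM in the young libraries and 8.15, 8.08 and 10.1 CPM in the old (log2 fold change -0.61 and -0.72). The most counted gene of the precursor list, *Bcas1*, is also made by myelinating cells and has 209, 256 and 278 CPM in the young libraries and 286, 395 and 278 CPM in the old. For 32 tested myelin genes the median is 0.14, with 0 above and 0 below in all old libraries (8.29% and 7.61% over all genes), 0 past the edgeR threshold and 5 upward and 1 downward at an unadjusted p under 0.05 (7.1% and 6.5%). Leaving out old replicate 3 makes these 1 and 0 (13.6% and 14.9%), and 2 and 0 (3.64% and 3.42%). The sum over the myelin list, with *Mbp* as the most counted gene, is 8695, 10659 and 11000.5 CPM in the young libraries and 9069, 14270.3 and 10389 CPM in the old. It is highest in old replicate 2 and without that library the median is -0.05, so the sign of the myelin median is set by 1 library. It is 0.14 without old replicate 3, 0.29 without old replicate 1 and 0.04 without young replicate 1.

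No neuronal list held another gene past the edgeR threshold. For 60 tested synaptic genes the median is -0.12 (-0.08 without old replicate 3), with 9 below and 1 above in all old libraries (7.61% and 8.29% over all genes) and 12 downward and 1 upward at an unadjusted p under 0.05 (6.5% and 7.1%). With old replicate 3 left out 14 lie below and 7 above (14.9% and 13.6% over all genes), with 6 downward and 0 upward at that p (3.42% and 3.64%). Removing the trend with gene length brings that median to -0.05. *Nlgn1* (-0.45, -0.29 without old replicate 3) and *Grik2* (-0.36 and -0.21) have the smallest p in the list, and in both old replicate 3 is the lowest library. *Reln* has 55.9, 60.2 and 54.6 CPM in the young libraries and 42.4, 42.8 and 30.1 CPM in the old (log2 fold change -0.56, adjusted p 0.0894, missing the threshold, and -0.41 without old replicate 3). The 24 neuronal markers have a median of 0.03 (0.00 without old replicate 3) and sum to 17158, 17576 and 17367 CPM in the young libraries and 19089, 17112 and 15677 CPM in the old, with *Camk2a* as the most counted gene. The 26 genes of hippocampal fields have -0.06 and -0.10, and sum to 2701, 2609.8 and 2703 CPM in the young libraries and 2744, 2516 and 2585 CPM in the old, with *Dkk3* as the most counted. At an unadjusted p under 0.05 the neuronal list holds 2 higher and 2 lower, and the field list 0 and 2 (7.1% and 6.5% over all genes). When old replicate 3 is left out they hold 0 and 3, and 0 and 3 (3.64% and 3.42%). Leaving out old replicate 1 brings the median of the field list to 0.00, and leaving out young replicate 3 to -0.02.

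Genes that respond to glucocorticoids have a median below 0 in every setting tried. None of the 24 tested passed in edgeR, 4 are lower and 2 higher at an unadjusted p under 0.05 (6.5% and 7.1% over all genes), 7 lie below and 2 above in every old library (7.61% and 8.29% over all genes), and the median is -0.14 (-0.12 without old replicate 3 and -0.21 without old replicate 2). In the fit that leaves out old replicate 3, 4 are lower and 0 higher at that p (3.42% and 3.64%), and 8 lie below and 3 above (14.9% and 13.6%). *Sgk1* has 136, 86.1 and 95.2 CPM in the young libraries and 58.7, 60.7 and 57.5 CPM in the old (log2 fold change -0.84, SE 0.23, adjusted p 0.186, and -0.83 without old replicate 3). *Nfkbia* has 35.3, 26.8 and 26.2 CPM in the young libraries and 16.1, 17.6 and 20.8 CPM in the old (log2 fold change -0.70, SE 0.15, adjusted p 0.0831, and -0.80). *Tsc22d3* has 86, 65.3 and 65.7 CPM in the young libraries and 42.4, 50.8 and 45.6 CPM in the old (log2 fold change -0.65 and -0.64). The most counted member, *Nr3c2*, has 272, 210.1 and 257 CPM in the young libraries and 269, 232 and 210.0 CPM in the old. Among 40 immediate early genes, 4 are lower and 1 higher at an unadjusted p under 0.05 (6.5% and 7.1% over all genes), and 4 and 2 with old replicate 3 left out (3.42% and 3.64%). None of the 40 passed in edgeR, and the median is -0.05 with all libraries, -0.04 without old replicate 3 and -0.14 without young replicate 2. *Sik1* has the smallest p of that list at -1.0 (-0.92 without old replicate 3), with 14.8, 25 and 22.5 CPM in the young libraries and 10.4, 11.6 and 9.02 CPM in the old. *Apold1*, with a larger p, has a larger fold change of -1.45 (-1.17 without old replicate 3). The hour at which the mice were killed is not given, and handling, hour and age were not tested against each other.

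Interferon-response genes depend on which libraries are kept. For 25 tested genes the median is -0.24, and -0.37 without old replicate 3, but without young replicate 1 it is 0.45 and without young replicate 3 -0.54. Young replicate 1 is the highest of the 6 by the sum of the list: 342, 163 and 155 CPM in the young libraries and 201, 217 and 266 CPM in the old, with *Ifi27* as the most counted gene. *Isg15* has 5.73, 2 and 1.04 CPM in the young libraries and 1.91, 1.35 and 1.83 CPM in the old. *Ifi27* goes the other way from the list median, with 32.4, 35.1 and 31.2 CPM in the young libraries and 37.3, 45.5 and 60.5 CPM in the old and no overlap (log2 fold change 0.53, adjusted p 0.343, missing the threshold, and 0.33 without old replicate 3). None of the list passed in edgeR, and 1 of the 25 reached an unadjusted p under 0.05 upward and 0 downward (7.1% and 6.5% over all genes), and 0 and 1 with old replicate 3 left out (3.64% and 3.42%). The 18 tested genes of antigen presentation have a median of 0.32, which is 0.07 without old replicate 3 and 0.54 without young replicate 1. The 20 genes of that list found sum to 334, 234 and 226 CPM in the young libraries and 298, 282 and 420.1 CPM in the old, with *B2m* as the most counted gene. None of the 18 passed in edgeR, 1 reached an unadjusted p under 0.05 upward and 0 downward, and in 0 of them do the old libraries all lie above the young ones (8.29% over all genes). With old replicate 3 left out 0 reached that p.

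Among genes of estrogen signalling, *Cyp19a1*, which encodes aromatase, had too few counts to be tested, with 2, 0 and 1 counts in the young libraries and 1, 0 and 0 in the old. *Esr2* was likewise not tested, with 0, 0 and 2 and 0, 0 and 0 counts. *Esr1* has 1.61, 2.63 and 1.57 CPM in the young libraries and 2.17, 3.06 and 1.83 CPM in the old and *Gper1* has 2.78, 2.84 and 2.31 CPM in the young libraries and 3.73, 2.08 and 3.92 CPM in the old. Their log2 fold changes of 0.30 and 0.31 missed the threshold with overlapping values, and without old replicate 3 they are 0.43 and 0.17. At this depth a difference in *Cyp19a1* or *Esr2* was not detectable.

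Of the 13 protein-coding genes of the mitochondrial genome 7 were tested, and *mt-Atp6*, *mt-Atp8*, *mt-Co2*, *mt-Co3*, *mt-Nd3* and *mt-Nd4l* are listed at 0 in all 6 libraries, so these 6 give no information here. The 7 have a median of 0.17 with all libraries and 0.17 without old replicate 3, with 0.09 without young replicate 1 and 0.03 once the trend with gene length is removed. In 2 of the 7 all old libraries lie above all young ones (8.29% over all genes), and without old replicate 3 in 6 (13.6%). They sum to 64929, 75624 and 75244 CPM in the young libraries and 81999.7, 82247 and 74843 CPM in the old, with *mt-Co1* as the most counted gene.

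Tissue next to the hippocampus varies between libraries. The 16 choroid plexus genes, all tested, sum to 164, 2161 and 1144 CPM in the young libraries and 194, 659 and 4320.3 CPM in the old. Most of that is *Ttr*, at 94, 1842 and 959 CPM in the young libraries and 109, 530.5 and 3927 CPM in the old, and without it the sum is 69.6, 319 and 185 CPM in the young libraries and 84.2, 128 and 393 CPM in the old. The range spans both ages, and the median log2 fold change is 0.09 with all libraries, -1.14 without old replicate 3, -0.28 without young replicate 1 and 0.76 without young replicate 2. Ependymal genes, 10 of 12 tested, sum to 39.7, 60.9 and 50.5 CPM in the young libraries and 24.5, 42.1 and 54 CPM in the old (*Foxj1* most counted), with medians of -0.36, -0.67 without old replicate 3 and -0.10 without old replicate 1. Thalamic genes, 11 of 12 tested, sum to 307, 175 and 212 CPM in the young libraries and 202, 193 and 143 CPM in the old (*Amotl1* most counted), with medians of -0.35 and -0.22 without old replicate 3, -0.19 without young replicate 1 and -0.61 without young replicate 2. The 10 habenular genes sum to 79.1, 63.1 and 66.5 CPM in the young libraries and 47.7, 53.9 and 39.2 CPM in the old (*Nwd2* most counted), and their median of -0.49 is -0.58 without old replicate 3 and 0.05 without young replicate 3. Striatal genes, 10 of 11 tested, sum to 181, 199.9 and 192 CPM in the young libraries and 208, 202 and 232 CPM in the old (*Pde10a* most counted), with medians of 0.12, 0.10 without old replicate 3 and -0.11 without old replicate 2, so the sign is set by 1 library. For 14 neocortical genes the sum is 266, 288 and 269 CPM in the young libraries and 263, 302 and 283 CPM in the old (*Lhx2* most counted), with medians of 0.05 and 0.10 without old replicate 3. Pineal genes, 2 of 7 tested, sum to at most 1.57 CPM in any of the 6 libraries, with medians of -0.82 and -0.67 without old replicate 3. No gene of these lists passed the edgeR threshold with or without old replicate 3.

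Vessels and meninges show no gene past the edgeR threshold either. The 18 endothelial genes sum to 627, 619.8 and 596 CPM in the young libraries and 611, 583 and 632 CPM in the old (*Flt1* most counted), and 3 reached an unadjusted p under 0.05 upward and 1 downward (7.1% and 6.5% over all genes), against 0 and 1 with old replicate 3 left out (3.64% and 3.42%). Their median is 0.06 with all libraries, -0.04 without old replicate 3 and -0.03 without old replicate 1. The 14 mural genes sum to 333, 366 and 346 CPM in the young libraries and 349.6, 348 and 346 CPM in the old (*Rgs5* most counted), and 0 reached that p upward and 0 downward, with medians of -0.02 with and 0.01 without old replicate 3, and 0.04 without old replicate 1. For 16 genes of meningeal fibroblasts the median is -0.31 and the sum 183, 189 and 156 CPM in the young libraries and 159, 137 and 179 CPM in the old (*Fn1* most counted). In 2 of these 16 all old libraries lie below the young ones (7.61% over all genes), and in 8 without old replicate 3 (14.9%), when the median is -0.61; without old replicate 2 it is -0.13. *Col1a1* has 9.58, 10.2 and 6.79 CPM in the young libraries and 5.64, 5.88 and 5.88 CPM in the old and *Col3a1* 2.96, 5.37 and 3.28 CPM in the young libraries and 2.25, 0.979 and 3.53 CPM in the old. The 70 tested genes of the extracellular matrix have a median of -0.12 with and -0.12 without old replicate 3, and -0.02 without young replicate 2. In 9 all old libraries lie below the young ones and in 5 above (7.61% and 8.29% over all genes). With old replicate 3 left out these are 21 and 10 (14.9% and 13.6%). At an unadjusted p under 0.05, 4 are higher and 7 lower (7.1% and 6.5% over all genes). Leaving out old replicate 3 makes these 5 and 4 (3.64% and 3.42%). Of this list, *Adamts1* is lower in old (log2 fold change -0.79, and -0.74 without old replicate 3). *Col6a3* is higher (1.09 and 1.39), and both missed the threshold. Border macrophage and monocyte genes, 9 of 13 tested, sum to 12.9, 12.3 and 12.1 CPM in the young libraries and 13.8, 7.71 and 14.8 CPM in the old (*Mrc1* most counted), and their median of 0.06 is 0.00 without old replicate 3, -0.36 without old replicate 1 and 0.40 without old replicate 2, so single libraries turn its sign. Whether the tissue taken shifts any of the results above was not tested.

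**Figure D3:**
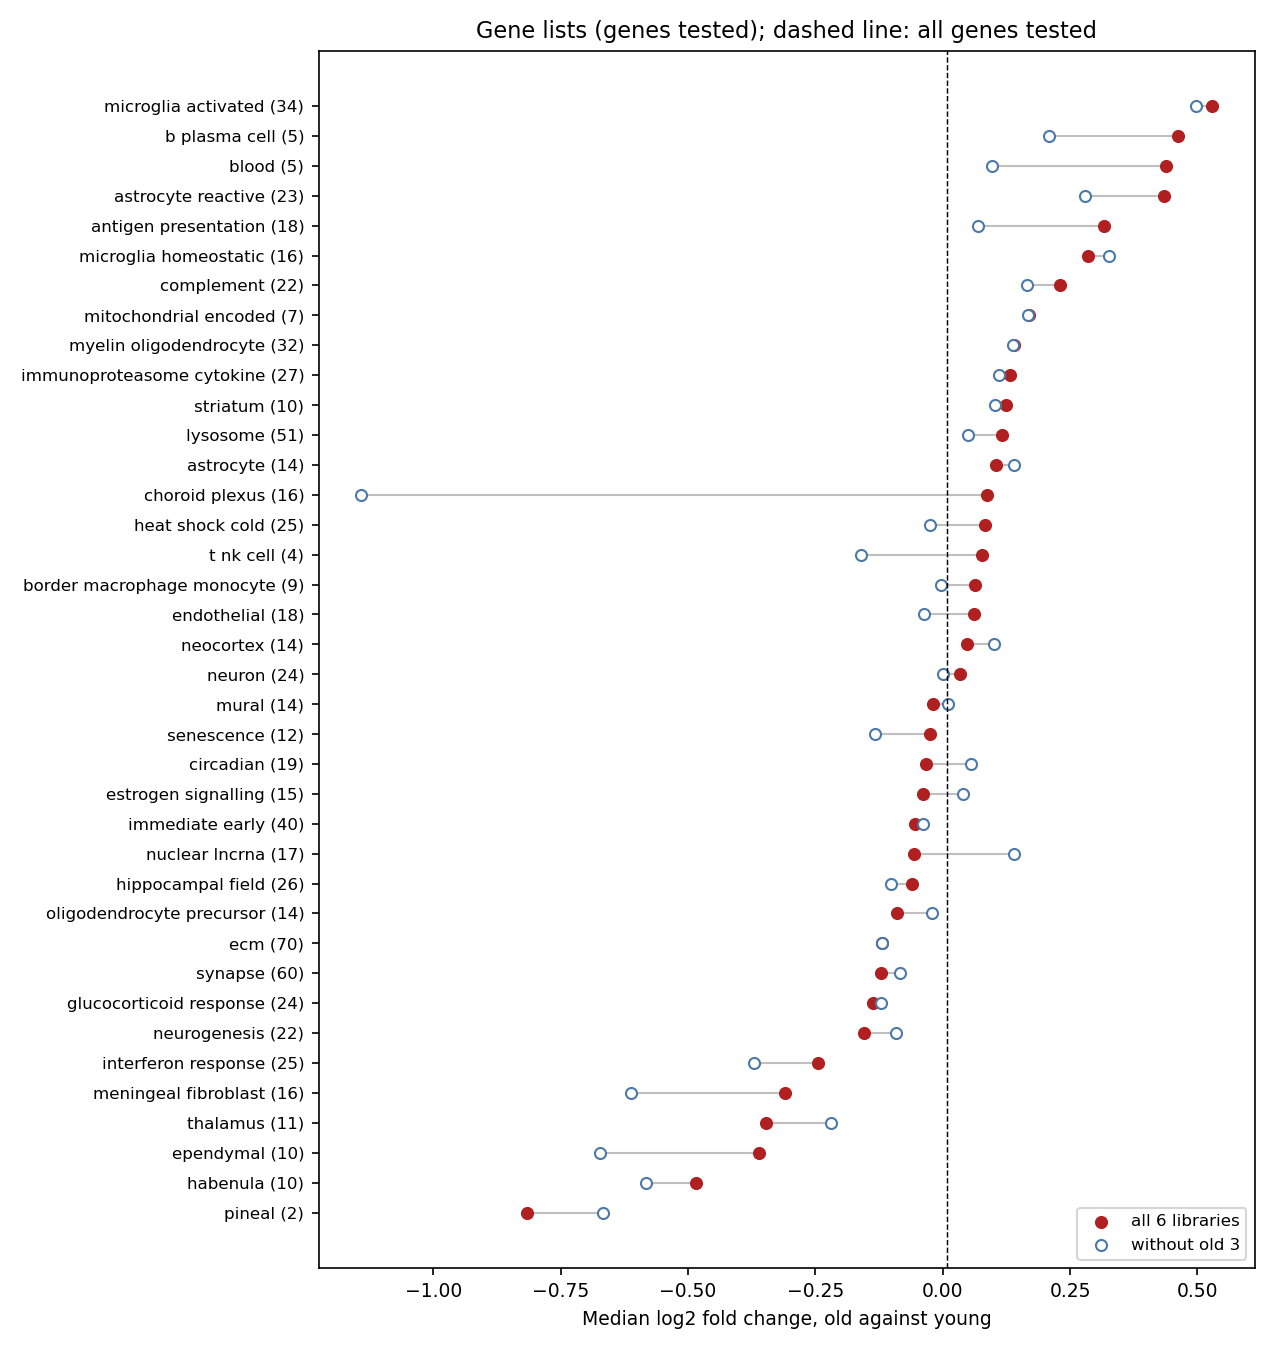
Median log2 fold change of each gene list but that of the sex chromosomes, old against young female controls, with all 6 libraries and without old replicate 3. Genes tested per list are in brackets.

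Cytokine, stress, clock, senescence and estrogen signalling genes were read as further lists. Cytokine and immunoproteasome genes (27 tested) have a median of 0.13 with all libraries and 0.11 without old replicate 3, with 0.04 without young replicate 3, and *Tnfrsf1b* has the smallest p of the list, at 0.54 and 0.49. Heat shock and cold-response genes (25) have 0.08 and -0.02, circadian genes (19) -0.03 and 0.05, senescence genes (12) -0.03 and -0.13, and estrogen signalling genes (15) -0.04 and 0.04. The circadian median is also 0.06 without young replicate 1, and the senescence median 0.05 without old replicate 2. For heat shock and cold response it is 0.17 without old replicate 1 and 0.00 without young replicate 3. For estrogen signalling it is -0.12 without old replicate 1 and -0.15 without old replicate 2. No gene of these 5 lists passed the edgeR threshold; at an unadjusted p under 0.05 the cytokine and immunoproteasome list holds 7 higher and 2 lower (7.1% and 6.5% over all genes), and the other 4 together hold 4 higher and 3 lower in old, against 5 and 1, and 1 and 1, with old replicate 3 left out (3.64% and 3.42% over all genes). Outside the lists, *Lsp1* has 3.14, 3.27 and 2.24 CPM in the young libraries and 5.9, 5.75 and 5.36 CPM in the old (log2 fold change 0.99, edgeR adjusted p 0.0831, 1.03 without old replicate 3) and *Opcml* 208, 220.2 and 207 CPM in the young libraries and 163, 168 and 166 CPM in the old (log2 fold change -0.35, adjusted p 0.139, and -0.36), with no overlap in either and neither past the threshold.

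Ageing in male controls and in female bArKO mice shares no library with ageing in female controls and is compared here gene by gene. In male controls 3 genes passed, 3 higher in old (0.0191%) and 0 lower (0%). There, 566 higher and 476 lower genes reached an unadjusted p under 0.05, and DESeq2 called 3 higher and 0 lower. Every old male control library lies above every young one in 1001 genes (6.38%) and below in 892 (5.68%). Shared with female controls are 2 genes, *ENSMUSG00000095041* and *C4b*, 13.3% of the 15 and 66.7% of the 3; the third is *Spag6*, named after its values were seen. In female bArKO mice 23 genes passed, 22 higher (0.14%) and 1 lower (0.00637%), and no overlap was found upward in 1388 genes (8.84%) and downward in 1144 (7.29%). DESeq2 called 39 higher and 4 lower there, and in edgeR 745 higher and 434 lower genes reached an unadjusted p under 0.05. Of the 23, 8 are among the 15, which is 34.8% of the 23 and 53.3% of the 15: *ENSMUSG00000095041*, *C4b*, *Ctsz*, *Gfap*, *C1qc*, *Tyrobp*, *Ctss* and *9630013A20Rik*. All 15 have the same sign in male controls, and 10 have no overlap there in that direction. In female bArKO mice 13 have the same sign and 12 no overlap in that direction, and the 2 that differ are *Lars2* and *Mir6236*. The share of all genes with the same sign is not given here, so the sign counts are not set against it.

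*C4b* rose in all 3 comparisons, by 1.31 in female controls, 1.40 in male controls (edgeR adjusted p 0.0082) and 1.82 in female bArKO mice (adjusted p 0.000281). *Gfap* has 0.44 in male controls, missing the threshold, and 0.77 in female bArKO mice, past it. *Lars2* has -0.33 in male controls and 0.41 in female bArKO mice, and *Mir6236* -0.45 and 0.46, none of them past the threshold. *Cotl1* has 0.08 and 0.17 in the same order, neither past the threshold. Passing in one group and not in another does not show a difference between them, so the differences were tested.

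The interaction of age with sex in controls gave 0 genes in edgeR (adjusted p under 0.05), with 679 at an unadjusted p under 0.05 and a smallest adjusted p of 0.931, and DESeq2 gave 0, with 690. Leaving out old replicate 3 gave 0 in edgeR, with 529, and 0 in DESeq2, with 441. The edgeR count was also 0 without old replicate 1, with 1484, and without old replicate 2, with 1237. For age with genotype in females the count was 0 in edgeR, with 611 at an unadjusted p under 0.05 and a smallest adjusted p of 0.605, reached by *Lars2* and *Mir6236* among others. DESeq2 called 1 gene with 614 at that p, *Gh*, named after its values were seen. When old replicate 3 is left out, edgeR gave 0, with 627, and DESeq2 1, *Gh* again, with 585. Without old replicate 2, edgeR called 2 genes, *Lars2* and *Mir6236*, with 1124 at that p. Without old replicate 1 it called 0, with 1164. The list medians side by side are untested: activated microglia have 0.53 in female controls, 0.35 in male controls and 0.61 in female bArKO mice. Interferon-response genes have -0.24, -0.02 and 0.56 in the same order, and meningeal genes -0.31, 0.22 and 0.73. The median over all genes tested is 0.01, -0.01 and 0.00.

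**Figure D4:**
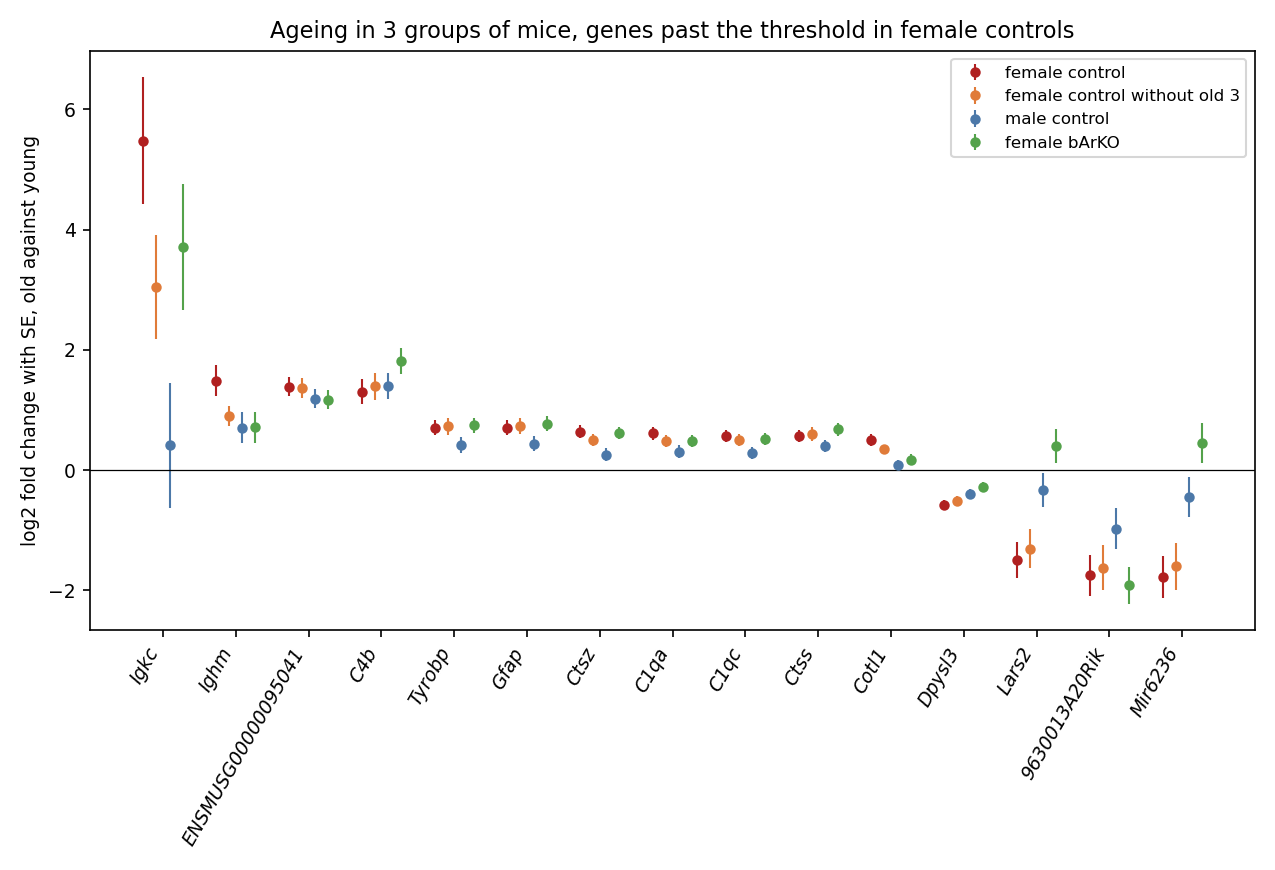
Log2 fold change with SE of the 15 genes past the threshold in female controls, in female controls with and without old replicate 3, in male controls and in female bArKO mice.

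Of the 15 genes, 6 have an entry in the RefSeq promoter table, the 250 bases before the annotated start on GRCm38.p6. Short letter patterns of transcription factors were searched there on both strands, without a test. The pattern of PU.1, a factor of myeloid cells, GAGGAAGT, occurs in 802 of all 32851 promoters (2.44%) and once before *C1qc*, on the reverse strand, in capitals in the sequence. The STAT pattern TTCNNNGAA occurs in 7.02% of promoters, the CREB pattern TGACGTCA in 1.55%, the glucocorticoid receptor pattern ACANNNTGT in 5.84% and the interferon-response pattern GAAANNGAA in 7.13%. The last 2 occur before *Ctss*, outside the stretch printed, and none of the 5 occurs before *Gfap*, *Ctsz*, *Lars2* or *9630013A20Rik*, so 2 of the 6 have a match and 4 have none. *C1qb*, which is not among the 15, has none either. Printed are the parts free of annotated exons, read in the direction of the gene, placed on GRCm39 by an exact match of their letters: *C1qc* at chr4:136620377-136620475 (minus strand), *C1qb* at chr4:136613512-136613761 (minus strand), *Gfap* at chr11:102788186-102788276 (minus strand) and *Ctss* at chr3:95433847-95433962 (plus strand). The stretch for *Gfap* lies within the gene as annotated on GRCm39, chr11:102778159-102791738 on the minus strand. It is thus downstream of the start given there, and for *Gfap* before means before the RefSeq start. What the match before *C1qc* does in these mice was not tested.
C1qc: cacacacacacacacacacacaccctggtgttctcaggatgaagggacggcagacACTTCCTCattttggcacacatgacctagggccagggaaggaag
C1qb: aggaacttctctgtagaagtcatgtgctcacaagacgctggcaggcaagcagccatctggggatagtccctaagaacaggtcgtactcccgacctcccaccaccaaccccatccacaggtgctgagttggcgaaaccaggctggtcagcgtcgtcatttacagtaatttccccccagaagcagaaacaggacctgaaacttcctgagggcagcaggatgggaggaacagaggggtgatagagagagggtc
Gfap: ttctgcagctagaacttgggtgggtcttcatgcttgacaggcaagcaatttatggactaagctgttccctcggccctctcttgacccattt
Ctss: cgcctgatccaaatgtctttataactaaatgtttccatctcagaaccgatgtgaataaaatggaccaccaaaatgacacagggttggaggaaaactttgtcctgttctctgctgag

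Each age has 3 mice, and 1 of the 3 old libraries differs from the other 5 along gene length. The order of the library numbers, the deviation of old replicate 3 and the choroid plexus share could each move with the values above. In edgeR, *ENSMUSG00000095041*, *C4b* and *Dpysl3* passed with and without that library, and in DESeq2 without it 9 of the 15 did. The activated microglial genes have medians of 0.53 and 0.50, in the same order. *C1qa*, *C1qc*, *Ctsz*, *Gfap*, *Tyrobp* and *Ctss* kept their direction without it at log2 fold changes of 0.48 to 0.73 and missed the edgeR threshold there, while DESeq2 called each of them but *C1qa* without that library. *Ighm* went from 1.49 to 0.90 and *Igkc* from 5.48 to 3.05.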

How the data were processed

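The series holds hippocampus RNA of 24 mice: 2 ages, 2 sexes and 2 genotypes make 8 groups, with 3 mice a group. The 6 female control libraries are compared here. The authors trimmed reads with Trim Galore 0.6.10, aligned them with STAR 2.7.9a to GRCm39 and counted them with HTSeq 2.0.2, and the deposited values are raw counts per gene. They state default settings wherever no other is named, and name none for the counting. Depth ran from 7615391 to 18872054 counts per library. Groups follow the sample labels. Genes were tested in edgeR 4.0.16 (R 4.3.3) by quasi-likelihood on all 24 libraries with 1 coefficient per group, TMM factors and filterByExpr, with Benjamini-Hochberg adjustment over the genes tested. Genes past the threshold have an absolute log2 fold change above 0.5 and an adjusted p under 0.05, the thresholds of the study. CPM carry the TMM factors, and list sums add them over all listed genes found in the counts, tested or not. Old and young values do not overlap where all libraries of one age lie above all of the other. DESeq2 1.42.0, other filters and factors, a replicate block, thinned counts and each of the 6 libraries left out in turn were tried. An exact permutation test of 3 against 3 cannot go below 0.1 and was not used. Symbols come from GENCODE and match 56630 of 57186 identifiers. The comparison and the 39 gene lists were chosen with earlier results of these data known. Genes named are those past the threshold, up to 4 per list by smallest p with the most counted member, 15 preset genes, up to 10 others without overlap and up to 5 per interaction.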

Additional observations from a re-analysis of the deposited data

How the results depend on the processing

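Across 21 alternative settings, 198 named genes gave 4082 log2 fold changes. Of these, 3833 kept both direction and side of the threshold, 129 fell short of a threshold passed before, 65 newly passed it, 55 changed sign without a call, and 0 reversed a call. Only the 15 genes past the threshold in the first fit could fall short, so all 129 losses are theirs. Most of the named genes never passed, and the 3833 are no measure of how stable the calls are. Depending on the setting, 0 to 15 of the 15 still passed. Of 814 list medians, 772 moved by less than the spread between replicates and 42 by more. Of 814 counts of genes past the threshold per list, 726 were equal to the first count or within 1.5 times it, and 88 were not. Most lists had 0 genes past the threshold in the first fit, and a count that stayed at 0 is held equal. The 726 are therefore mostly lists without a call and say little about the calls.

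The 15 genes past the threshold became 39 with DESeq2 on 24 libraries, 0 with edgeR on the 6 female control libraries, 3 on the 12 female libraries, 5 on the 12 control libraries and 172 with every gene of at least 1 count, 10 of them outside the genes tested before. With the replicate block, which pairs mice that share only a number, they were 8. Leaving out 1 library gave 1 to 16 genes. For the interaction of age with sex, the count of 0 became 64 with every gene of at least 1 count, and leaving out 1 library gave 0 to 0. For age with genotype it became 49 with that filter, 1 with DESeq2 on 24 libraries, 1 with DESeq2 on the 23 libraries other than old replicate 3, 2 with the replicate block, and 0 to 2 with 1 library left out. The cause was not tested. Old female bArKO replicate 2, young male control replicate 3 and old replicate 3 in DESeq2 were left out, and the length trend removed, by choices made after seeing the data. Depth limits genes near the floor, such as *Cyp19a1* and *Esr2*.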
